A study of Mus musculus with 15 samples.

Results

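Transcripts of 8 genes known for their expression in the choroid plexus were followed through 15 RNA-sequencing libraries of mouse cerebellum: Ttr, Folr1, Kl, Enpp2, Clic6, Aqp1, Kcnj13 and Otx2. They were taken by symbol from count tables of 24421 genes, and all 8 were present and passed the filter on low counts. All mice were of the FVB strain, with 5 libraries per genotype. The wild-type group is labelled by strain only. ATXN1[82Q] mice carried human ATXN1 with 82 glutamines, and the remaining mice carried ATXN1[82Q]V591A;S602D, the same tract with a pair of amino acid substitutions, called the substituted transgene here. The Pcp2 promoter drives both transgenes, in Purkinje neurons, and is not known for activity in the choroid plexus. The comparisons ask what the expanded protein, with and without the substitutions, does to cerebellar gene expression. No age is given in the labels used here, nor whether the 5 libraries of a genotype stand for 5 animals, so that p-values rest on library-to-library spread that may be technical.

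The choroid plexus is a folded epithelium over fenestrated capillaries that lines parts of the brain ventricles, including the roof of the fourth ventricle below the cerebellum, and it secretes the cerebrospinal fluid. Its cells export transthyretin (Ttr), which carries thyroxine and retinol-binding protein, and take up folate through the receptor Folr1. They release klotho (Kl), a membrane protein that is also shed and acts with FGF receptors, and autotaxin (Enpp2), the secreted enzyme that makes lysophosphatidate. Water and ions cross their apical membrane through channels that include aquaporin Aqp1 and the inward rectifier Kcnj13, and Clic6 belongs to the chloride intracellular channel family. Otx2, a homeodomain transcription factor, is needed for the formation and upkeep of this epithelium.

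RefSeq promoter sequence was at hand for 4 members, Kl, Aqp1, Kcnj13 and Otx2, and the 250 bases before the transcription start are printed here because the first 3 of these divided the libraries alike, while Otx2 varied over a far narrower range. The windows, on GRCm38.p6, are chr5:150952357-150952606 on the plus strand for Kl, chr6:55336049-55336298 on the plus strand for Aqp1, chr1:87394730-87394979 on the minus strand for Kcnj13 and chr14:48667645-48667894 on the minus strand for the most upstream of the RefSeq Otx2 starts at hand. It lies inside the annotated span of the gene given below. Capitals mark matches, searched on both strands, to any of 4 motifs. The TATA box was written as TATAAA, the box bound by nuclear factor Y as CCAAT, the box bound by Sp1 as GGGCGG, and the core that homeodomains of the Otx class recognise as TAATCC.
Kl: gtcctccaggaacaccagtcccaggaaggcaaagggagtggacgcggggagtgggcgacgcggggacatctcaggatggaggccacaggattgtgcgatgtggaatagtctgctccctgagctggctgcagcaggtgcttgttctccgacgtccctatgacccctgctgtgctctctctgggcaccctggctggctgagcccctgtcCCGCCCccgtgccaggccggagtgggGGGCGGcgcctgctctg
Aqp1: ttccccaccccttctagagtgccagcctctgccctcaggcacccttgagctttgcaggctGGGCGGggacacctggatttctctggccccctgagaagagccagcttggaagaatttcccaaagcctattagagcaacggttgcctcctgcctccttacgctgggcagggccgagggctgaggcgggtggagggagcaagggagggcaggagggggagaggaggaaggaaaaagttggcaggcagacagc
Kcnj13: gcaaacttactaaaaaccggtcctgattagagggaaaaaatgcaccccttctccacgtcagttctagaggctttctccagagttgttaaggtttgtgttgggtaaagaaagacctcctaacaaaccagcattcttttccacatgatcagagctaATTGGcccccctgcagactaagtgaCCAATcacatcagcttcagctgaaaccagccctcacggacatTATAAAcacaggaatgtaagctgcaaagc
Otx2: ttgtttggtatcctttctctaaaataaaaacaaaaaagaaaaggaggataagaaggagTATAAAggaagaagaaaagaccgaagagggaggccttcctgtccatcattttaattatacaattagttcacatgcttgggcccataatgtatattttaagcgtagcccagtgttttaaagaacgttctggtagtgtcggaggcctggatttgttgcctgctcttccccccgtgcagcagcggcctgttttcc
The Kcnj13 window held TATAAA with its first base 29 bases before the start, and CCAAT at 71 bases and, on the opposite strand, at 96 bases. Kl held GGGCGG at 17 bases and on the opposite strand at 43 bases, Aqp1 held GGGCGG at 190 bases and Otx2 held TATAAA at 192 bases. Of 32851 mouse promoter windows of the same length, 12.4% held TATAAA, 33.8% the second motif and 32.7% the third. The Otx-class core was in 6.25% of them and in none of the 4 windows shown. A match is only a run of letters, and no motif was shared by all 4. Another 3 Otx2 windows, not printed because they overlap exons of the gene, were searched too. One of them held the Otx-class core on the opposite strand at 211 bases, and another held CCAAT on the opposite strand at 70 bases.

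The libraries held 36467948 to 42818401 counts on genes, and levels are given as CPM, counts scaled to a common library total, scaled with TMM factors that ran from 0.968 to 1.04. Intervals per library cover counting error only, and the amplified cDNA carries no molecular identifiers, so reads are not counts of molecules. As a check of tissue and genotype, Calb1, the calcium buffer of Purkinje cells, stood at 1050 ± 49.6 CPM in wild type, 452 ± 40.2 CPM in ATXN1[82Q] and 795 ± 67.6 CPM with the substituted transgene (SD, n = 5 each). The mouse gene Atxn1 stood at 70.1 ± 9.03, 76.8 ± 6.46 and 83.9 ± 4.04 CPM in the same order and passed no test.

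Ttr divided the libraries. In wild type it stood at 1090, 5.48, 45.4, 4.26 and 3793 CPM in replicates 1 to 5, in ATXN1[82Q] at 26, 3248, 7.77, 3237 and 4869 CPM, and with the substituted transgene at 14.3, 1853, 2253, 3545 and 35.8 CPM. It thus exceeded 1000 CPM in 8 libraries (2 wild-type, 3 ATXN1[82Q] and 3 substituted) and stayed under 100 CPM in the other 7, with no library between. The ranges of the 3 genotypes overlapped almost completely. The highest library, ATXN1[82Q] replicate 5, held 1144 times the level of the lowest, wild-type replicate 4 (95% counting interval 983 to 1338), while the median tested gene differed 1.37-fold between its highest and lowest library. Ttr lies on chromosome 18 (20665280 to 20674321, plus strand, GRCm38).

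**Figure D1:**
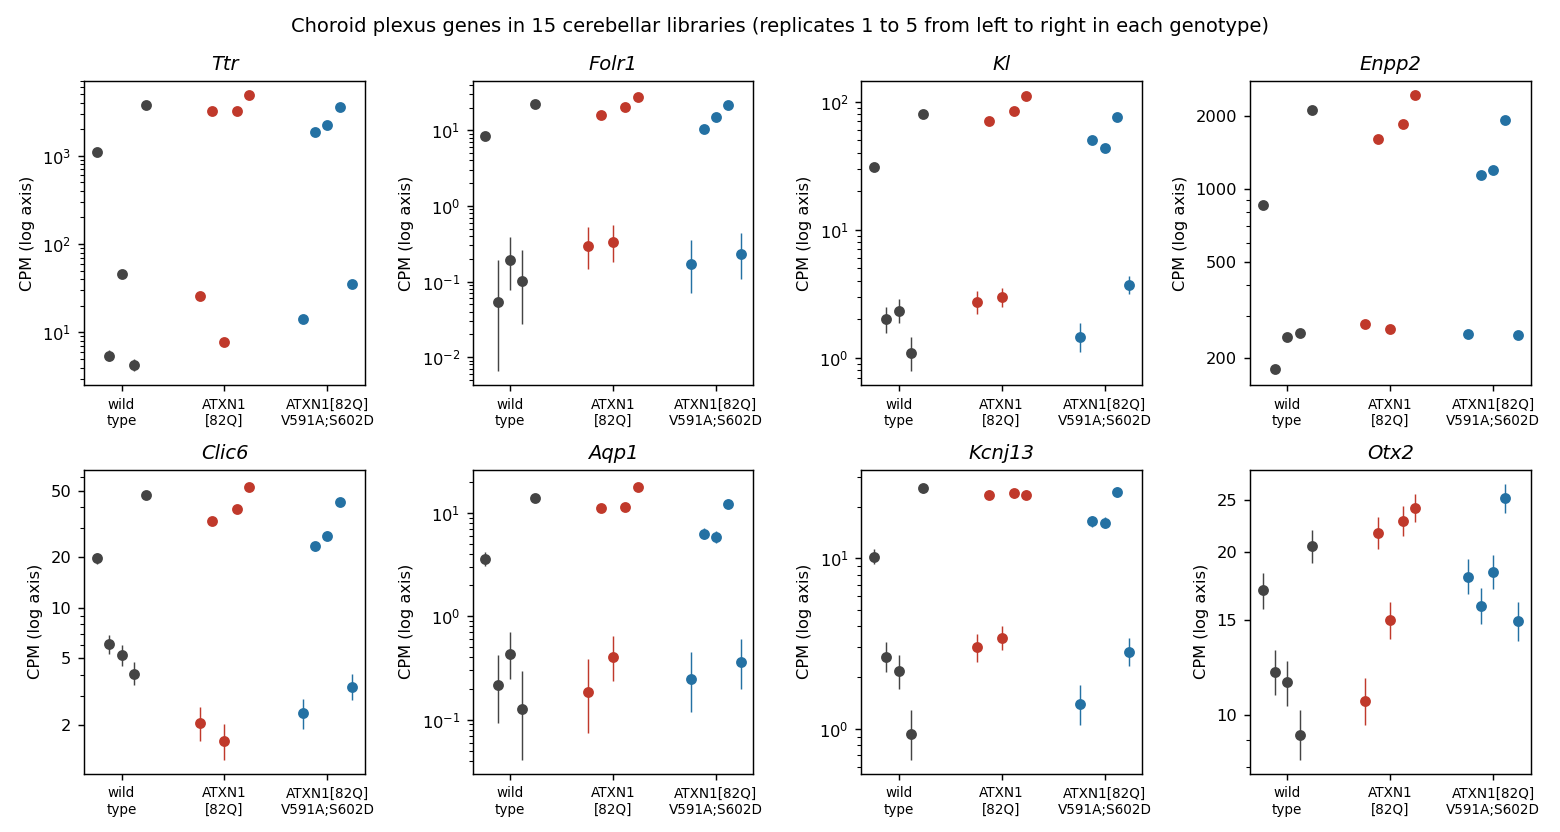
Level of each of the 8 genes in every library (CPM, log axis), with replicates 1 to 5 of each genotype from left to right and bars for the 95% counting interval. In 7 panels the points fall into a high and a low set made of the same libraries in each genotype; the Otx2 panel, from 9.17 to 25.2 CPM, has no such gap over all 15 libraries.

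Every member except Otx2 had the 8 libraries with Ttr over 1000 CPM as its own 8 highest. Among all 15843 genes tested, 135 did so, Ttr included (0.852%). In whole tissue, fewer epithelial cells and less RNA per epithelial cell cannot be told apart.

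Folr1, the receptor that carries folate across the epithelium (chromosome 7, 101858331 to 101870788, minus strand), was close to undetected in the low libraries. Its levels were 8.31, 0.0537, 0.190, 0.101 and 22.6 CPM in wild type, 0.292, 16.0, 0.335, 20.5 and 27.9 CPM in ATXN1[82Q], and 0.173, 10.4, 14.8, 21.5 and 0.234 CPM with the substituted transgene. The 7 low values rest on 2 to 14 counts each, against 331 to 1238 counts in the other 8 libraries. The highest library exceeded the lowest, which held 2 counts, 520-fold (95% counting interval 144 to 4296). High and low values occurred in each genotype.

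The secreted products of the epithelium showed the same division into high and low libraries, with different floors. Kl, the klotho gene (chromosome 5, 150952607 to 150993817, plus strand), stood at 30.7, 1.99, 2.33, 1.08 and 80.4 CPM in wild type, 2.71, 70.7, 2.96, 84.5 and 110 CPM in ATXN1[82Q], and 1.46, 49.9, 43.4, 76.4 and 3.71 CPM with the substituted transgene. Its highest library exceeded the lowest 102-fold (75.4 to 141). Enpp2 (chromosome 15, 54838901 to 54952892, minus strand) stood at 860, 181, 245, 255 and 2117 CPM in wild type, 276, 1601, 265, 1848 and 2422 CPM in ATXN1[82Q], and 253, 1136, 1197, 1914 and 250 CPM with the substituted transgene. Its 13.4-fold range (13 to 13.7) was narrower because the 7 low libraries kept 181 to 276 CPM. Enpp2 is also transcribed outside the choroid plexus, in oligodendrocyte lineage cells and meninges among others, and the source of this floor was not tested.

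The channel genes split likewise. Aqp1, the apical water channel (chromosome 6, 55336432 to 55348555, plus strand), stood at 3.59, 0.215, 0.433, 0.126 and 13.8 CPM in wild type, 0.186, 11.1, 0.406, 11.4 and 17.9 CPM in ATXN1[82Q], and 0.247, 6.29, 5.90, 12.3 and 0.364 CPM with the substituted transgene. The low values rest on 5 to 17 counts, and the range was 142-fold (60.8 to 440). Clic6 (chromosome 16, 92485736 to 92541243, plus strand) stood at 19.7, 6.05, 5.20, 4.06 and 46.8 CPM in wild type, 2.05, 33.0, 1.60, 39.1 and 52.9 CPM in ATXN1[82Q], and 2.35, 23.3, 26.9, 42.5 and 3.38 CPM with the substituted transgene, a 33.1-fold range (25.9 to 42.8). Kcnj13 (chromosome 1, 87386363 to 87394729, minus strand) stood at 10.2, 2.63, 2.17, 0.932 and 25.9 CPM in wild type, 3.00, 23.7, 3.42, 24.2 and 23.7 CPM in ATXN1[82Q], and 1.39, 16.5, 16.2, 24.6 and 2.83 CPM with the substituted transgene. It was the only member besides Otx2 whose highest library was not ATXN1[82Q] replicate 5. Its value is uncertain, because 49.1% of its exon length (623 bases) lies over exons of Gigyf2 on the opposite strand and the strand setting of the counting is not given in the sources used here.

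Otx2 (chromosome 14, 48657677 to 48673819, minus strand) varied over a far narrower range than the other members. It stood at 17, 12, 11.5, 9.17 and 20.5 CPM in wild type, 10.6, 21.7, 15, 22.8 and 24.1 CPM in ATXN1[82Q], and 18.0, 15.9, 18.4, 25.2 and 14.9 CPM with the substituted transgene. The 8 libraries with Ttr over 1000 CPM ranged from 15.9 to 25.2 CPM and the others from 9.17 to 18.0 CPM, so that the ranges overlapped. Within wild type and within ATXN1[82Q] every Ttr-rich library was nonetheless above the others. The overlap rests on replicate 1 of the substituted transgene, at 18.0 CPM, and without it the low libraries ended at 15 CPM. The highest library exceeded the lowest 2.75-fold (2.43 to 3.11). It is also known from granule cell precursors of the cerebellum.

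Among the 8 libraries rich in Ttr the ratios of the other members to Ttr varied less than Ttr itself did. After subtracting each gene's median in the other 7 libraries, Enpp2 amounted to 417 to 564 CPM per 1000 CPM of Ttr, a 1.35-fold range, while Ttr itself varied 4.47-fold between these libraries. Kl amounted to 18.4 to 26.3, Clic6 to 9.14 to 15.2, Folr1 to 4.88 to 7.55, Kcnj13 to 4.35 to 7.56 and Aqp1 to 2.53 to 3.64 CPM per 1000 CPM of Ttr. These ranges were 1.43-fold for Kl, 1.66-fold for Clic6, 1.55-fold for Folr1, 1.74-fold for Kcnj13 and 1.44-fold for Aqp1. Otx2 reached 2.13 to 4.64 CPM per 1000 CPM of Ttr, a 2.18-fold range. For Clic6 the 2 wild-type libraries, at 11.5 and 15.2, lay above the 6 transgenic ones, at 9.14 to 11.1. For Enpp2 they lay at 493 and 564, above the 422 to 480 of the substituted transgene and overlapping the 417 to 495 of ATXN1[82Q]. The subtracted median pooled the genotypes, although Clic6 in the low libraries was higher in wild type, as given below. Without the subtraction these separations were absent. Wild-type replicate 5 then stood at 12.3 for Clic6 and 558 for Enpp2, below replicate 2 of the substituted transgene at 12.6 and 613. The genotypes overlapped in the ratios of the other 5 members. Wild-type replicate 1, the library with the least Ttr of the 8, had the highest ratio of Folr1, Kl, Enpp2, Clic6 and Otx2. These ratios describe the libraries and were not tested.

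**Figure D2:**
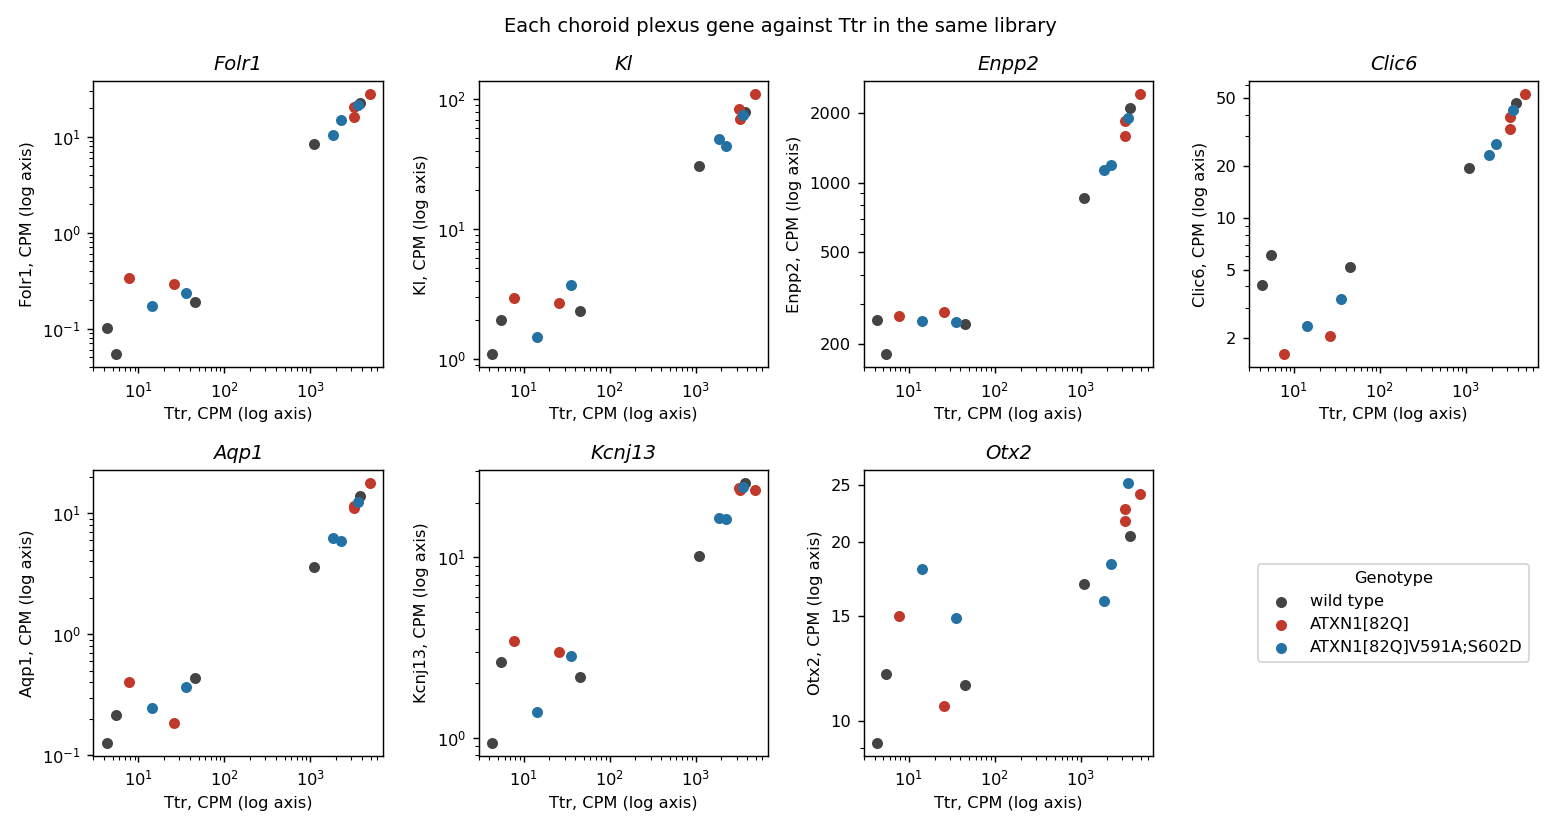
Level of each member against that of Ttr in the same library (CPM, log axes), coloured by genotype. The points form a cluster of 7 libraries under 100 CPM of Ttr and a cluster of 8 over 1000 CPM, and the members other than Otx2 are all higher in the second. Within it the order is not strict: Kcnj13 stood at 23.7, 24.2 and 23.7 CPM in the 3 ATXN1[82Q] libraries, and Kl and Aqp1 were lower at 2253 than at 1853 CPM of Ttr.

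Per kilobase of exon, Ttr was the most abundant member in the 8 libraries, with a median of 2734 CPM per kb (919 to 4105), followed by Enpp2 at 298 CPM per kb (149 to 419). Kcnj13 followed at 18.7 CPM per kb (8.05 to 20.4), with the limit given above. Clic6 stood at 9.21 (5.03 to 13.5), Folr1 at 7.94 (3.62 to 12.2), Kl at 7.89 (3.29 to 11.8), Otx2 at 5 (3.77 to 5.97) and Aqp1 at 4.28 CPM per kb (1.37 to 6.83). From Kcnj13 down, the ranges of neighbours in this order overlapped. In the 7 other libraries Enpp2 led at 43.8 CPM per kb (31.4 to 47.7), ahead of Ttr at 12 CPM per kb (3.59 to 38.3), and the levels per kilobase of these neighbours in the order overlapped.

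No member differed between genotypes by the test. With edgeR's quasi-likelihood test and Benjamini-Hochberg adjustment over 15843 genes, 0 of 8 members were called in ATXN1[82Q] against wild type, where 31.5% of all tested genes were called. In the substituted transgene against wild type 0 of 8 were called (1.41% of all genes), and in ATXN1[82Q] against the substituted transgene 0 of 8 (28.1%). At an unadjusted p under 0.05 the count was also 0 in each comparison, where 41.9%, 11.7% and 40.2% of all genes passed, and DESeq2 called 0 members in each, where it called 33.4%, 2.71% and 30.3% of all genes. For 0 members did the values of a pair of genotypes fail to overlap, against 19.2%, 3.16% and 17.9% of all genes.

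The point estimates lay above 0 for all members in all 3 comparisons, with wide intervals. In ATXN1[82Q] against wild type, the log2 fold change of Ttr was 1.21 ± 1.66 (SE; 95% interval -2.30 to 4.72, adjusted p = 0.619, edgeR), from means of 2278 ± 2168 and 988 ± 1635 CPM (SD, n = 5 each). Kl stood at 1.22 ± 1.12 (adjusted p = 0.436) and Enpp2 at 0.81 ± 0.756 (adjusted p = 0.445) on the same scale. Each of these intervals holds both a fall and a severalfold rise, so that changes within it were not detectable with this spread between libraries. Folr1 was at 1.05, Aqp1 at 1.17, Kcnj13 at 0.90 and Clic6 at 0.65, and the median over the 8 members was 0.97, against 0.00685 over all tested genes. The ATXN1[82Q] group held 3 libraries with Ttr over 1000 CPM and the wild-type group 2. With the log2 level of Ttr in each library as a covariate, Kl stood at 0.33, Enpp2 at 0.12 and Aqp1 at 0.22. In that fit Kcnj13 stood at 0.31, Otx2 at 0.25, Folr1 at -0.02 and Clic6 at -0.55. None of these was called, where 30.4% of all genes were. Ttr is itself a member, and the part of the library split in the estimates was not tested separately. Leaving out single libraries moved the Ttr estimate between 0.72, without ATXN1[82Q] replicate 5, and 2.99, without wild-type replicate 5, with adjusted p from 0.227 to 0.798.

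Otx2 had the tightest estimate. It stood at 14.0 ± 4.61 CPM in wild type, 18.8 ± 5.83 CPM in ATXN1[82Q] and 18.5 ± 4.01 CPM with the substituted transgene (SD, n = 5 each), and its log2 fold change in ATXN1[82Q] against wild type was 0.43 ± 0.229 (SE; 95% interval -0.06 to 0.91, edgeR adjusted p = 0.17). This call depended on single libraries: without wild-type replicate 5 the value was 0.60 (adjusted p = 0.048) and without ATXN1[82Q] replicate 1 it was 0.57 (adjusted p = 0.0459), so that 1 of 8 members was then called. Over all 15 fits that left out a library, its adjusted p ran from 0.0459 to 0.353. The substituted transgene gave 0.40 ± 0.229 against wild type (adjusted p = 0.541).

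In the substituted transgene against wild type the members' log2 fold changes ran from 0.26 for Clic6 to 0.64 for Ttr, with a median of 0.51 and adjusted p from 0.541 to 0.942 (edgeR). This comparison shares the 5 wild-type libraries with the previous one. With the log2 level of Ttr in each library added as a covariate, 6 of these signs turned: Folr1 stood at -0.06, Kl at -0.02, Enpp2 at -0.18, Clic6 at -0.65, Aqp1 at -0.12 and Kcnj13 at -0.01, none of them called (1.59% of all genes were, in this fit). In ATXN1[82Q] against the substituted transgene the values ran from 0.03 for Otx2 to 0.71 for Aqp1, with a median of 0.45 and adjusted p from 0.662 to 0.94. In this comparison 0 members were called with Ttr as a covariate (32.9% of all genes were) or in the libraries with Ttr over 1000 CPM alone (17%). A p that misses the threshold does not show that the genotypes were alike in these genes.

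**Figure D3:**
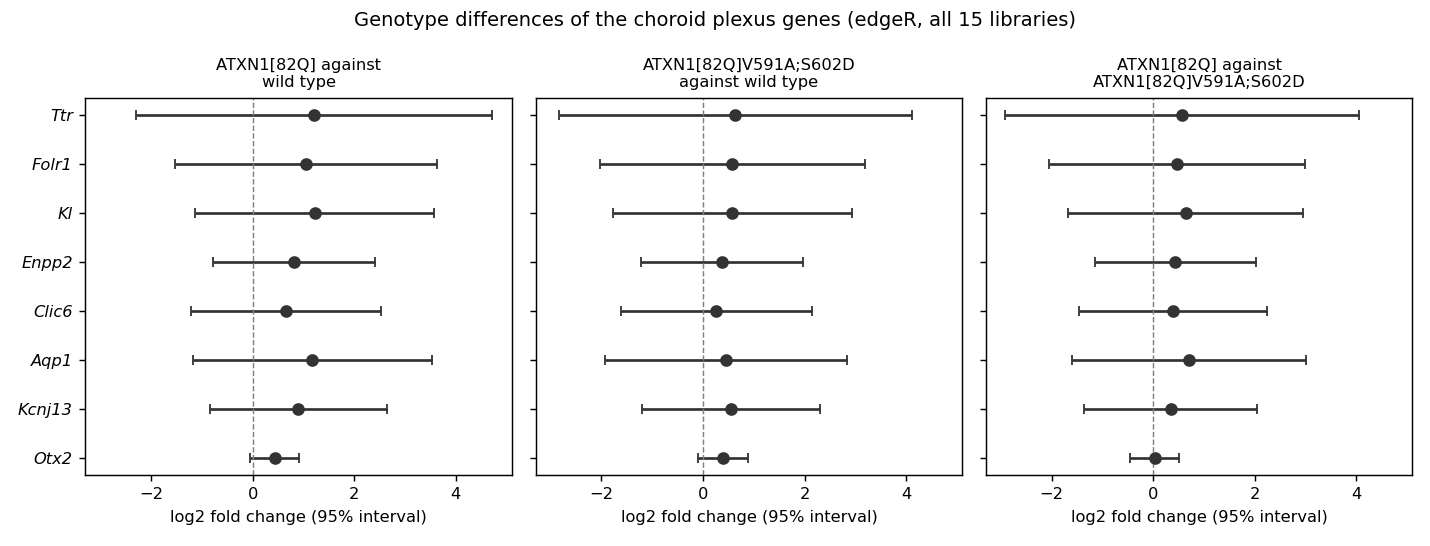
Log2 fold change of each member in the 3 genotype comparisons (edgeR, all 15 libraries), with 95% intervals. Every interval spans 0, and those of Ttr, from -2.30 to 4.72 in the first panel, are far wider than those of Otx2, from -0.06 to 0.91.

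The spread behind these intervals was among the highest of all tested genes. The biological coefficient of variation fitted by edgeR was 1.54 for Ttr, 1.43 for Folr1, 1.24 for Aqp1 and 1.18 for Kl, and 0.779 for Enpp2, against a common value of 0.102. Otx2, at 0.251, was at percentile 92.67 of all tested genes and Ttr at percentile 99.96.

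Within the 7 libraries with Ttr under 100 CPM, Clic6 was the only member called between genotypes. There it stood at 6.05, 5.20 and 4.06 CPM in wild type, 2.05 and 1.60 CPM in ATXN1[82Q], and 2.35 and 3.38 CPM with the substituted transgene. The wild-type values lay above all others. The log2 fold change of ATXN1[82Q] against wild type was -1.49 (edgeR adjusted p = 0.00162, 3 against 2 libraries), in a fit that called 20.4% of all genes, and that of the substituted transgene against wild type was -0.84 (adjusted p = 0.152, where 0.939% of all genes were called). Against the substituted transgene it was -0.65 (adjusted p = 0.141, with 9.53% of all genes called). The sign was the opposite of that over all libraries, and within the 8 libraries with Ttr over 1000 CPM the ATXN1[82Q] value was 0.32 (adjusted p = 0.614, where 10.1% of all genes were called). With Ttr as a covariate it was -0.55 (adjusted p = 0.171), in a fit that called 30.4% of all genes. The difference between the 2 sets of libraries was not tested, and this restriction was chosen after the data were seen.

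In the same low libraries 4 other members lay higher in ATXN1[82Q] than in wild type without overlap, and none of them passed the test. With 2 against 3 libraries values separate easily, and the share of all genes that did so was not computed. The count therefore says nothing particular about the members. Folr1 stood at 0.292 and 0.335 CPM against 0.0537 to 0.190 CPM (log2 fold change 1.43, edgeR adjusted p = 0.0946), on few counts. Kl stood at 2.71 and 2.96 against 1.08 to 2.33 CPM (0.66, adjusted p = 0.249), and Kcnj13 at 3.00 and 3.42 against 0.932 to 2.63 CPM (0.75, adjusted p = 0.185). Enpp2 stood at 276 and 265 against 181 to 255 CPM (0.25, adjusted p = 0.155). With the substituted transgene, Otx2 at 18.0 and 14.9 CPM lay above the 9.17 to 12 CPM of wild type (0.59, adjusted p = 0.178).

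The genes most like the members across the 15 libraries were sought among 13988 genes by the root-mean-square difference of centred log2 CPM, a description that uses all the libraries. Among genes that are no members, Kcne2, a potassium channel subunit of the choroid plexus, was nearest to Ttr (1.25) and Folr1 (0.58), and F5, coagulation factor V, was nearest to Kl (0.42) and Aqp1 (0.42). Htr2c, the serotonin receptor that marks this epithelium, was nearest to Enpp2 (0.21), Cldn1, a tight junction claudin, to Clic6 (0.51) and Lbp, the lipopolysaccharide-binding protein, to Kcnj13 (0.30). Among the members, Kl and Aqp1 were closer to each other (0.31), and Ttr was closer to Folr1 (1.01), than to any of these. Otx2 was nearest to Galntl6 (0.19), but its median distance to all genes was only 0.45, against 3.92 for Ttr, so that this likeness sets little apart. The mean profile of the 8 members was nearest to F5 (0.27), Prlr (0.43), Krt18 (0.47), Cldn1 (0.49), Cldn2 (0.54) and 5930403L14Rik (0.71). F5, for example, stood at 14.5, 1.18, 1.41, 1.13 and 40.4 CPM in wild type, and at 1.33, 28.2, 1.20, 41.5 and 54.3 CPM in ATXN1[82Q].

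A list of 28 other choroid plexus epithelium genes divided in the same way. In 23 of the 28 the 8 libraries with Ttr over 1000 CPM were the 8 highest, against 0.852% of all genes. Kcne2 ranged from 5.85 to 18.7 CPM in these and from 0.148 to 0.379 CPM in the others, Htr2c from 9.77 to 37.6 and from 1.85 to 4.86 CPM, and the tight junction gene Cldn2 from 5.10 to 17.5 and from 0.453 to 1.32 CPM. The exceptions were Slc13a4, Igf2, Ace, Slc2a12 and Slc29a4, and the last of these, a monoamine transporter also found in neurons, stood between 43.0 and 62.9 CPM in every library.

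**Figure D4:**
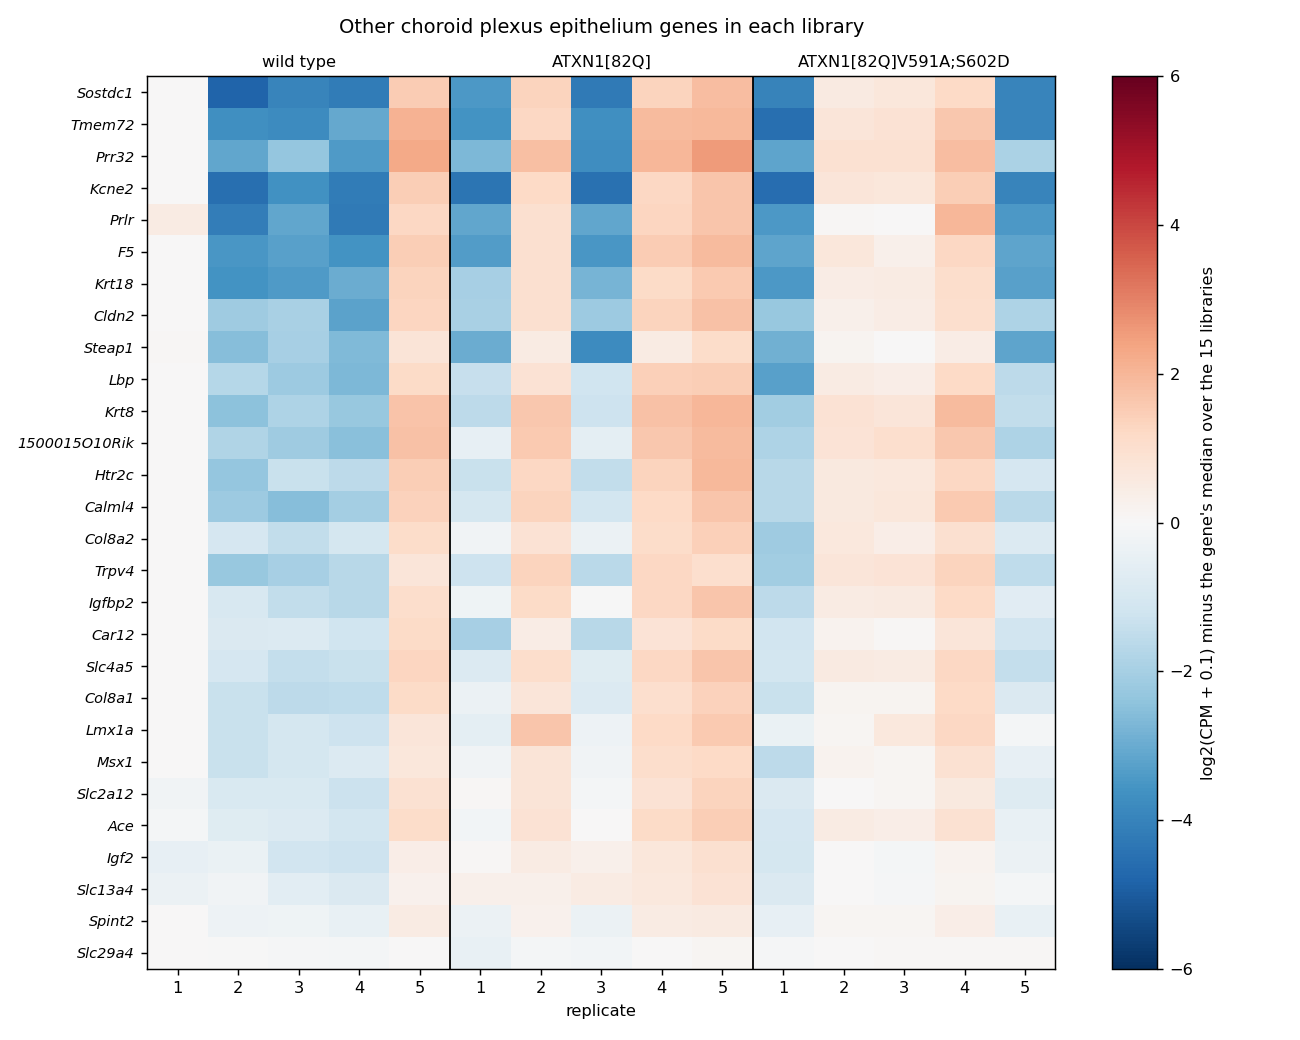
Level of 28 other choroid plexus epithelium genes in each library, as log2(CPM + 0.1) minus the gene's median over the 15 libraries (red above, blue below), ordered by the size of their range. Replicates 2, 3 and 4 of wild type, 1 and 3 of ATXN1[82Q] and 1 and 5 with the substituted transgene are blue for most genes of the list.

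Of these 28 genes 3 were called higher in ATXN1[82Q] than in wild type and 0 lower (31.5% of all genes were called), with a median log2 fold change of 1.00. Slc13a4, a sulfate transporter, rose from 27.8 ± 8.76 to 49.8 ± 9 CPM (log2 fold change 0.84, edgeR adjusted p = 0.00351), and Igf2, the growth factor, from 161 ± 78.7 to 322 ± 79.4 CPM (1.00, adjusted p = 0.0108; SD, n = 5 each). Both genes are also transcribed in meningeal fibroblasts, whose list moved with this comparison as given below. In the libraries with Ttr over 1000 CPM alone the values were 0.63 and 0.72 (adjusted p = 0.0538 and 0.0639), past the threshold in neither. Both calls held under 100 CPM of Ttr (0.92 and 1.07, adjusted p = 0.0112 and 0.0123) and with Ttr as a covariate (adjusted p = 0.00123 and 0.00213). Lmx1a, the roof plate factor, was called at 1.37 (adjusted p = 0.0416), but 9 of 15 fits that left out a library lost the call, with adjusted p up to 0.103. With the substituted transgene 0 of 28 were called against wild type (1.41% of all genes were). In ATXN1[82Q] against the substituted transgene, where 28.1% of all genes were called, Slc13a4 was the only one of 28 called (0.68, edgeR adjusted p = 0.0155).

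Genes that work with the members in fluid secretion varied little. Of 16 genes of cerebrospinal fluid secretion, ion and acid-base transport, 1 had the same 8 libraries highest (0.852% of all genes did). It was the anion exchanger Slc4a2, with 60.4 to 88.3 CPM in these and 47.3 to 55.0 CPM in the others. The summed level of the 16, many of which are expressed throughout the brain, differed only 1.07-fold between libraries. In ATXN1[82Q] against wild type 4 of 16 were higher and 4 lower, beside 31.5% of all genes called, with Aqp4, the astrocytic aquaporin, rising from 437 ± 21.9 to 655 ± 49.0 CPM (edgeR adjusted p = 4.04e-07). With the substituted transgene 0 of 16 were called against wild type (1.41% of all genes were). Against the substituted transgene, ATXN1[82Q] had 4 higher and 2 lower (28.1% of all genes were called).

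Of the genes that handle the cargo of Ttr, retinoids and thyroid hormone, 4 of 11 were higher and 1 lower in ATXN1[82Q] than in wild type (31.5% of all genes were called). Rbp4, the retinol-binding protein that Ttr carries, rose from 6.42 ± 2.26 to 13.1 ± 2.37 CPM (log2 fold change 1.03, edgeR adjusted p = 0.000643), and did not have the same 8 libraries highest. The retinoid receptor Stra6 and the thyroid hormone transporter Slco1c1 did, with 6.19 to 8.73 and 54.2 to 64.0 CPM in these against 1.46 to 5.77 and 42.6 to 52.7 CPM in the others (0.852% of all genes did). Against the substituted transgene, ATXN1[82Q] had 3 of 11 higher and 1 lower (28.1% of all genes). The substituted transgene itself had 0 called against wild type (1.41% of all genes).

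Among partner genes of the other members, 0 of 6 folate genes, 0 of 8 klotho and FGF receptor genes, 0 of 6 lysophosphatidate genes and 0 of 10 genes of the CLIC, aquaporin and inward rectifier families had the same 8 libraries highest. Of all tested genes 0.852% did, so that these counts do not set the partner genes apart from other genes. In ATXN1[82Q] against wild type, where 31.5% of all genes were called, 2 of 6 folate transport genes were higher, Slc46a1, the proton-coupled transporter, at 0.14 and the exporter Abcg2 at 0.30, and each call was lost in 9 of 15 fits that left out a library. Of 7 tested klotho and FGF receptor genes 3 were higher, Fgfr1, Fgfr2 and Fgfr3, with Fgfr3 rising from 91.3 ± 5.60 to 106 ± 6.45 CPM (edgeR adjusted p = 0.0032). Of 5 tested lysophosphatidate genes 1 was higher, the receptor Lpar1, from 45.4 ± 5.41 to 54.3 ± 2.04 CPM (adjusted p = 0.00701). Of the 10 channel family genes 4 were higher and 1 lower, with Clic4 rising from 149 ± 7.75 to 182 ± 14.5 CPM (adjusted p = 0.00017) and Kcnj16 falling from 48.0 ± 2.86 to 39.9 ± 3.04 CPM (adjusted p = 0.00149).

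The substituted transgene against wild type, where 1.41% of all genes were called, had 1 of 7 klotho and FGF receptor genes called, Fgfr1 (0.26, adjusted p = 0.0154), and 1 of 10 channel family genes, Clic1 (0.21, adjusted p = 0.0396). The Fgfr1 call was lost without replicate 1 or without replicate 2 of the substituted transgene and that of Clic1 in 10 of 15 such fits, with adjusted p up to 0.0565 and 0.135. ATXN1[82Q] against the substituted transgene had 1 folate, 1 klotho and FGF receptor, 1 lysophosphatidate and 3 channel family genes higher and 0 lower, beside 28.1% of all genes called. Of 5 tested Otx and roof plate factors, Lmx1a, Msx1 and Gdf7 had the same 8 libraries highest (0.852% of all genes did). In ATXN1[82Q] against wild type 1 of the 5, Lmx1a, was called higher (31.5% of all genes were called).

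Among single markers of the tissues next to the choroid plexus, 0 of 14 ependymal and motile cilia genes, 0 of 11 meningeal fibroblast genes and 0 of 11 endothelial and mural cell genes had the same 8 libraries highest. Of all tested genes 0.852% did, so that these counts do not set the markers apart from other genes. The summed ependymal level was 75.5 to 137 CPM in the 8 libraries and 55.8 to 99.0 CPM in the others. The meningeal sum was 218 to 390 and 175 to 415 CPM, and the endothelial sum 281 to 346 and 267 to 363 CPM, all of them overlapping. Within each genotype, however, the ependymal sum was higher in every library with Ttr over 1000 CPM. It was 78.3 and 93.4 against 55.8 to 68.3 CPM in wild type, 110 to 137 against 89.4 and 99 CPM in ATXN1[82Q], and 75.5 to 112 against 65.7 and 72.9 CPM with the substituted transgene. The summed ependymal level thus moved with the members inside each genotype. The sum of the retinoid and thyroid hormone genes did so too, over a range of 1.17-fold between libraries, against 2.46-fold for the ependymal sum. Between genotypes, 10 of 14 ependymal genes were higher in ATXN1[82Q] than in wild type and 0 lower (31.5% of all genes were called), among them Foxj1, the regulator of motile cilia, with 16.5 ± 5.80 against 6.4 ± 4.64 CPM (edgeR adjusted p = 0.0114). Of the meningeal genes 10 of 11 were higher, such as the matrix gene Dcn with 66.0 ± 3.82 against 42.7 ± 6.20 CPM (adjusted p = 1.48e-05), and of the endothelial and mural genes 3 of 11. Against the substituted transgene, where 28.1% of all genes were called, 2 of 14, 11 of 11 and 3 of 11 were higher in ATXN1[82Q]. The substituted transgene against wild type had 0 called in these lists, where 1.41% of all genes were called. The part of these tissues in the members' values was not tested.

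**Figure D5:**
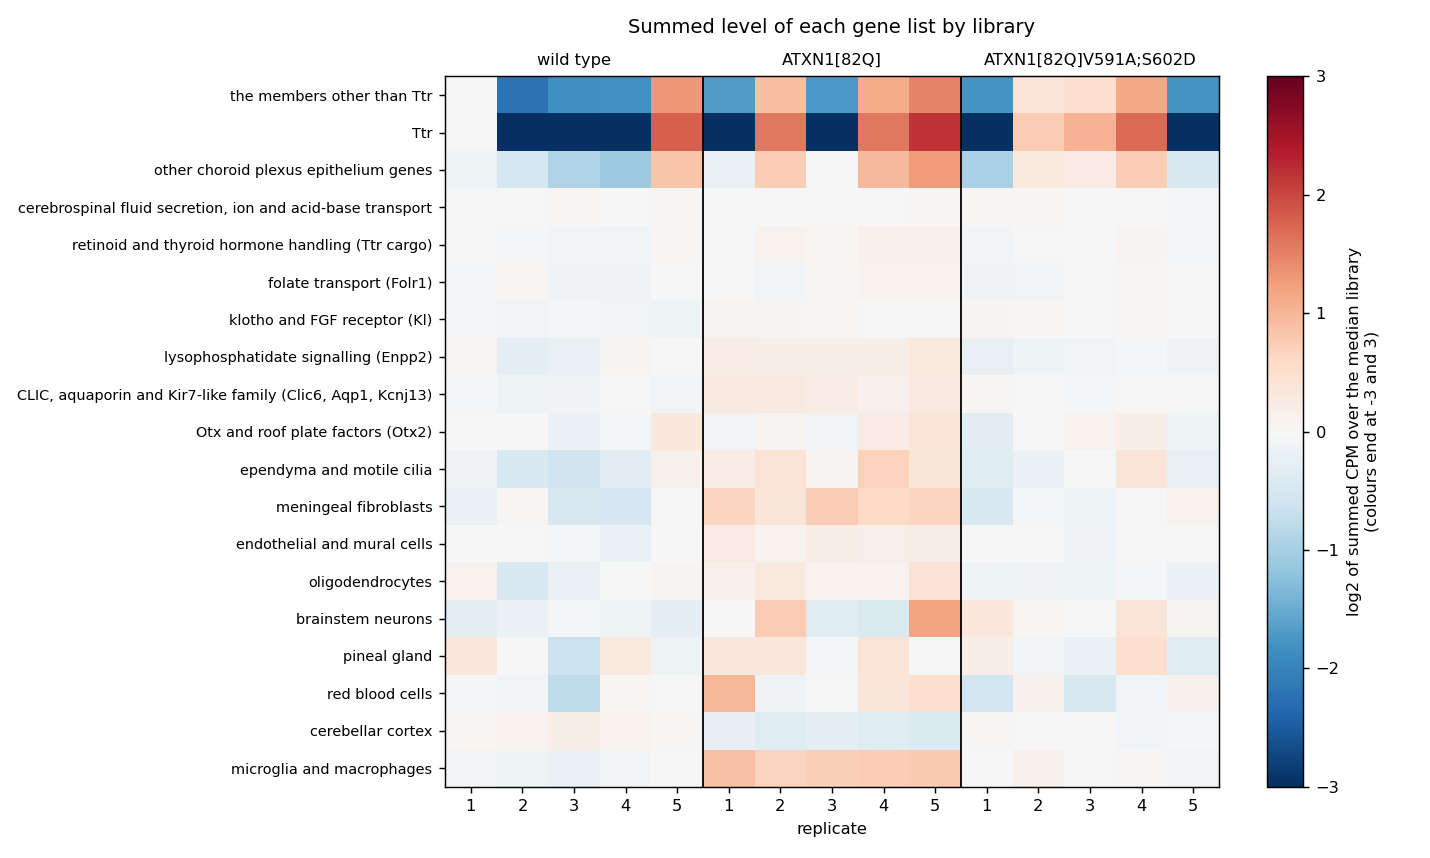
Summed level of each gene list in each library, as log2 of its ratio to the median library, with colours ending at -3 and 3. The members and the 28 other choroid plexus genes share their dark and light libraries across the genotypes. The other lists vary less or differ by genotype, and the ependymal list does both. The ependymal list and the retinoid and thyroid hormone list are higher in the Ttr-rich libraries of each genotype.

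Other cells in the tissue moved in part with Ttr. The oligodendrocyte sum was higher in the Ttr-rich libraries of wild type (7445 and 7595 against 5154 to 7021 CPM). It was so too with the substituted transgene (6456 to 6845 against 6172 and 6396 CPM), and overlapped in ATXN1[82Q]. The cerebellar cortex sum was lower in these libraries of wild type (8891 and 8964 against 9250 to 9889 CPM). It was so too in ATXN1[82Q] (6457 to 6731 against 7076 and 7225 CPM), and overlapped with the substituted transgene. Of 10 oligodendrocyte genes 7 were higher in ATXN1[82Q] than in wild type, of 10 microglial and macrophage genes 8, of 4 tested pineal genes 1 and of 2 tested red cell genes 1, with 0 lower in each, beside 31.5% of all genes called. Of 10 cerebellar cortex genes 2 were higher and 8 lower. Of 14 brainstem genes 12 had a library at 0 and only 2 could be tested, with 0 called, and their summed level was highest in ATXN1[82Q] replicates 5 and 2, at 30.2 and 22.65 CPM, against 9.89 to 17.55 CPM elsewhere. The 4 haemoglobin genes were at 0 counts in every library.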

How the data were processed

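RNA from dissected cerebella was measured in 15 libraries. Per the labels' protocols, 10 ng of RNA was amplified to cDNA by poly(A) and random priming, sheared to 400 bp and read on an Illumina instrument. The submitters' processing notes name STAR 2.5.3a, HTSeq, DESeq2 and mm10. The deposited counts are whole reads per gene, not normalised. How strand was treated, which counting mode was set and which gene models served is not given in the sources used here. Lines that name no gene were left out of library sizes: 16.8% to 18.2% of reads fell outside genes, 1.18% to 1.25% were ambiguous and 12.8% to 14.6% aligned to several places.

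Genes were tested with edgeR 4.0.16 (quasi-likelihood test, R 4.3.3), all 15 libraries in a single fit without a replicate block, TMM scaling and filterByExpr with a minimum count of 10, and called where p, adjusted by Benjamini-Hochberg over 15843 genes, was under 0.05. Log2 CPM used a prior count of 2. Intervals of single libraries are exact binomial limits at 95%, given the total counts of the library. Gene positions and exon lengths came from GENCODE M21 (GRCm38), promoters from RefSeq. The 8 members, the gene lists and the tests were chosen with earlier results of these data known. Named genes were the members, each member's nearest non-member, the 6 genes nearest to their mean profile, up to 4 called and 4 most abundant genes of each list, and Pcp2, Calb1, Gabra6 and Atxn1. Fgfr2, Msx1, Gdf7, Stra6, Slco1c1 and the choroid plexus genes outside that rule were named after their values were seen. A gene that this rule takes is not reported here.

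Among 30 pairs of libraries within a genotype none looked duplicated (chi-square 5.7 to 40.6 per degree of freedom). Tested on simulated data for ATXN1[82Q] against wild type over 15843 genes, the fit called 76 of 102 genes changed 1.5-fold and 84 of 98 changed 2-fold, with 3 false calls of 163. The simulated spread followed the trend over all genes, whose common coefficient of variation was 0.102. Those of the members were 0.251 to 1.54, so that this recovery does not apply to them. Alternatives were Ttr as a covariate, a fit without the count filter, a fit of 2 genotypes alone, the replicate block, RLE size factors, DESeq2 1.42.0 and leaving out single libraries. Fits on libraries with Ttr under 100 or over 1000 CPM alone were added after the data were seen. Figures were drawn with matplotlib 3.10.9.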

Additional observations from a re-analysis of the deposited data

Results flagged for a closer look

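Aqp1 and Ttr each had a wild-type library far above the rest of its group. Ttr in wild-type replicate 5 stood at 3793 CPM, with the other 4 libraries at 4.26 to 1090 CPM, and its gap to the nearest of them was 0.713 of the whole range. Aqp1 in the same library stood at 13.8 CPM, with the others at 0.126 to 3.59 CPM and a gap of 0.746 of the range. The limit for 5 samples is 0.71, and 2 of 24 groups of member and genotype passed it. Chance flags about 1 in 20 where values spread normally and groups are independent. That rate does not apply here, because Ttr and Aqp1 formed a high and a low set and the members moved together. Each of the 8 libraries with Ttr over 1000 CPM had high values of the other members except Otx2, so these flags mark a single library.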

How the results depend on the processing

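Of 543 values of the members under alternatives, 509 kept their direction and side of the threshold, 32 changed sign and 2 passed the threshold with the same sign. The 2 were Otx2 in ATXN1[82Q] against wild type, as given above, and among the 32 Clic6 at -1.49 was also called. Levels under CPM without TMM factors and under RLE size factors moved by less than the spread between replicates.

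The count of members called in ATXN1[82Q] against wild type was 1 in the libraries with Ttr under 100 CPM alone, where it was Clic6, and 0 to 1 when a library was left out. All genes called in that comparison numbered 3234 in libraries with Ttr under 100 CPM and 1624 in those over 1000 CPM, against 4993. In the substituted transgene against wild type they numbered 430 with DESeq2, 0 over 1000 CPM and 136 to 307 when a library was left out, against 223. In ATXN1[82Q] against the substituted transgene they numbered 1512 under 100 CPM and 2751 over 1000 CPM, against 4454. Fewer libraries entered these restricted fits.

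Signs that turned in ATXN1[82Q] against wild type were Folr1 at -0.02 and Clic6 at -0.55 with Ttr as a covariate, and Clic6 at -1.49 under 100 CPM of Ttr. In the substituted transgene against wild type, the covariate gave Folr1 -0.06, Kl -0.02, Enpp2 -0.18, Clic6 -0.65, Aqp1 -0.12 and Kcnj13 -0.01. Clic6 was at -0.84 under 100 CPM, and Enpp2 at -0.07, Clic6 at -0.10 and Aqp1 at -0.08 over 1000 CPM. Leaving out a library moved Enpp2 from -0.05 to 1.30, Clic6 from -0.23 to 1.16 and Aqp1 from -0.19 to 2.18. In ATXN1[82Q] against the substituted transgene, Otx2 was at -0.02 with the covariate, and under 100 CPM Clic6 was at -0.65, Aqp1 at -0.01 and Otx2 at -0.36. Leaving out a library moved Folr1 from -0.02 to 1.03, Clic6 from -0.05 to 0.88 and Otx2 from -0.07 to 0.17 there. None of the others was called, and the cause was not tested. In the libraries with Ttr over 1000 CPM alone, edgeR's ATXN1[82Q] calls against wild type were lost for Fgfr3 (0.17, adjusted p = 0.201), Lpar1 (0.18, 0.117), Kcnj16 (-0.22, 0.114) and Foxj1 (0.99, 0.0686), with no change of direction. Under 100 CPM only that of Lpar1 was lost among these 4 (0.29, 0.0755).

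The replicate number as a block turned signs in ATXN1[82Q] against the substituted transgene, to -0.50 for Ttr, -0.20 for Folr1, -0.03 for Kl, -0.10 for Clic6 and -0.00233 for Otx2, and changed no call of a member. Deviations of libraries with the same number correlated above 0.1 in 4 of 15 cases (median -0.109, range -0.434 to 0.568). Libraries with different numbers were not compared, so that these values cannot show whether the numbers carry a pairing.

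The depth of 36467948 to 42818401 counts was not the limit for the genotype comparisons of the members, whose spread between libraries far exceeded counting error. It limits Folr1 and Aqp1 in the 7 low libraries, where 2 to 17 counts were seen.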
